A study of Homo sapiens with 2 samples.

Results

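The zinc finger genes of the far long arm of chromosome 19 were taken as all rows of the deposited table named ZNF plus a number, with or without 1 further letter, whose locus began at 35 Mb or beyond. This gave 163 genes of 25436 gene symbols in the table. RNA had been sequenced from HuES53 and HuES64, 2 lines of human embryonic stem cells, each diploid, undifferentiated and below passage 20, and each serving as an in vitro fertilization control in a study of haploid embryonic stem cells. Each line gave 1 library of polyadenylated RNA, so no difference below has a replicate check or a p-value, and all of them describe these 2 libraries. Values are FPKM, fragments scaled by transcript length and by library size, as deposited.

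Most zinc finger genes of this arm encode C2H2 proteins, in which tandem fingers, each folded around a zinc ion, read DNA. Many also carry a KRAB domain at the amino end, which recruits TRIM28 (KAP1) and with it the histone methyltransferase SETDB1, HP1 proteins and other silencing factors. In embryonic stem cells these proteins are known above all for silencing retrotransposons and for protecting imprinted methylation marks. The genes arose by repeated tandem duplication and lie in clusters, in which neighbours can be close copies. Fragments from near-identical copies cannot be told apart with certainty in such a table, so a single member's value may include reads of a relative.

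The libraries matched their label. All 8 pluripotency markers stood at 10 FPKM or more in both lines, among them POU5F1 (1053 and 1381 FPKM in HuES53 and HuES64) and NANOG (94.4 and 84.7 FPKM). Markers of other cells were not all absent: 4 of 5 fibroblast genes and all 3 endoderm genes reached 1 FPKM in both lines, with summed levels of 210 and 227 FPKM for the fibroblast genes and 26.0 and 21.4 FPKM for the endoderm genes. Within these sums single genes differed in both directions. Of the endoderm genes, AFP stood at 7.25 and 1.53 FPKM and SOX17 at 6.89 and 10.6 FPKM. Of the fibroblast genes, COL1A1 (138 and 168 FPKM) and COL1A2 (66.5 and 46.7 FPKM) made up most of the sum, and COL3A1 stood at 3.08 and 8.00 FPKM. The mesoderm marker MIXL1 stood at 6.84 and 2.52 FPKM. The neural markers PAX6 (1.19 and 0.720 FPKM) and SOX1 (0.0136 and 0.0520 FPKM) and the mesoderm marker T (0.736 and 0.365 FPKM) were low or near 0. The part of such cells in the results was not tested. Steps among low values of olfactory receptor genes put 1 FPKM over 1 kb at about 18.6 fragments in HuES53 and 15.2 in HuES64, for an assumed fragment of 200 bases. On that estimate the tested members had a median of 218 fragments in HuES53 and 150 in HuES64.

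The promoters are shown first, because a sequence motif was more frequent in them than in other promoters and because the pair of members with the largest differences between the lines shared a run of letters at the start. The promoters printed, and the motif dwelt on out of 6 searched, were chosen after the values were seen. RefSeq start regions of 300 bases (250 before and 50 after the first listed start, GRCh38.p14) were found for 138 of the 163 members. Printed here are those of ZNF528 (chr19:52397599-52397898) and ZNF578 (chr19:52453303-52453602), the pair with the largest differences, of ZNF134 (chr19:57613992-57614291), the highest member that was at least 2-fold different, and of ZNF581 (chr19:55643399-55643698), the highest member of all and lower in HuES53. All 4 lie on the plus strand, and capitals mark the motif CCGGAAG or its reverse complement, the core of sites bound by ETS factors.
ZNF528: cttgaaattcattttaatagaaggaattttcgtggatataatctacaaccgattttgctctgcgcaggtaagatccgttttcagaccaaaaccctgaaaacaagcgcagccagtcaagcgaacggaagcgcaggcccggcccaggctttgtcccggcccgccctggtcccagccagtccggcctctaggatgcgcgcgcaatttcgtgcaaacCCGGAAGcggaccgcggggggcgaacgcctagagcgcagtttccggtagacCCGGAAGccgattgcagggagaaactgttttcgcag
ZNF578: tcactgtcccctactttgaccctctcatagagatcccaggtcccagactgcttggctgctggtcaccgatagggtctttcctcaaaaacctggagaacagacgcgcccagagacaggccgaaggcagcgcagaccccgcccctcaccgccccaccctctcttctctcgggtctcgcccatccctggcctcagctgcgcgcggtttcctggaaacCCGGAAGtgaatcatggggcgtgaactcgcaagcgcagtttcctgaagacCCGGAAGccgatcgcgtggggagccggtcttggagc
ZNF134: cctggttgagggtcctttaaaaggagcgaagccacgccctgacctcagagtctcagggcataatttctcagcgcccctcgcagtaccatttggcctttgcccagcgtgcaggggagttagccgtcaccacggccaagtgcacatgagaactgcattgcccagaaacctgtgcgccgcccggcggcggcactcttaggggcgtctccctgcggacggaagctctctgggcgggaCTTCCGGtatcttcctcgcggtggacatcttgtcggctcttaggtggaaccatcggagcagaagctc
ZNF581: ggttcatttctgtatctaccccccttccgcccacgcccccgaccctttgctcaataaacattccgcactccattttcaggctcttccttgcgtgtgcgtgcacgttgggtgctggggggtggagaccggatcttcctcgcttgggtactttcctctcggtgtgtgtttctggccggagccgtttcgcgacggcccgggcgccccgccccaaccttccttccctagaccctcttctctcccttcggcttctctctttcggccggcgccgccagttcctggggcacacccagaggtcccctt
The promoters of ZNF528 and ZNF578 shared a run of 16 bases, agacccggaagccgat, which began 10 bases past the start in each and held the motif. Each of these promoters held the motif 2 times, and they were the only such members among the 32 with a promoter between ZNF175 and ZNF331. Over all 138 member promoters, 9 held it 2 or more times (6.52%, against 1.88% of all RefSeq promoters). Of these 9, 7 lay between ZNF628 and ZNF446 and differed in both directions. ZNF787, ZNF865, ZNF324 and ZNF274 were higher in HuES64, and ZNF256, ZNF773 and ZNF582 were higher in HuES53. ZNF134 held the motif 1 time and ZNF581 did not hold it. ZNF528 and ZNF134 shared no run longer than 8 bases. Shared runs were not searched for in other members of the cluster that holds ZNF528 and ZNF578. Whether the run of 16 bases is particular to this pair was thus not tested.

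Over all members the motif CCGGAAG, searched on both strands, was in 69 of 138 promoters, against 10.7% of 27305 promoters of the same length in the RefSeq table. Among ZNF genes on the rest of chromosome 19 the share was 34.7% of 72, among ZNF genes of other chromosomes 34.6% of 208, and among other genes of the same arm 9.29% of 452. Along the arm it was 29.2% of 24 promoters between ZNF565 and ZNF573, 31.6% of 19 between ZNF575 and ZNF296, 62.5% of 32 between ZNF175 and ZNF331 and 60.4% of 53 between ZNF628 and ZNF446. In members the median position of a match was -15 bases from the start. Member promoters were also rich in CpG, with 136 of 138 holding 10 or more CpG dinucleotides (98.6%, against 56.0% of all promoters). The GC-box core GGGCGG was in 60.1% of member promoters against 44.6% of all, and the TATA-box core TATAAA in 0.725% against 11.95%. The NRF1-type palindrome was in 18.1% against 8.78%, the YY1-type core CCATNTT in 21.7% against 15.9%, and the CRE core TGACGTCA in 1.45% against 1.98%. These matches describe letters only. Members with CCGGAAG had a median level of 3.08 FPKM and those without it 2.66 FPKM, averaged over the lines, and median differences between the lines, as defined below, of 0.34 and 0.24.

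**Figure D1:**
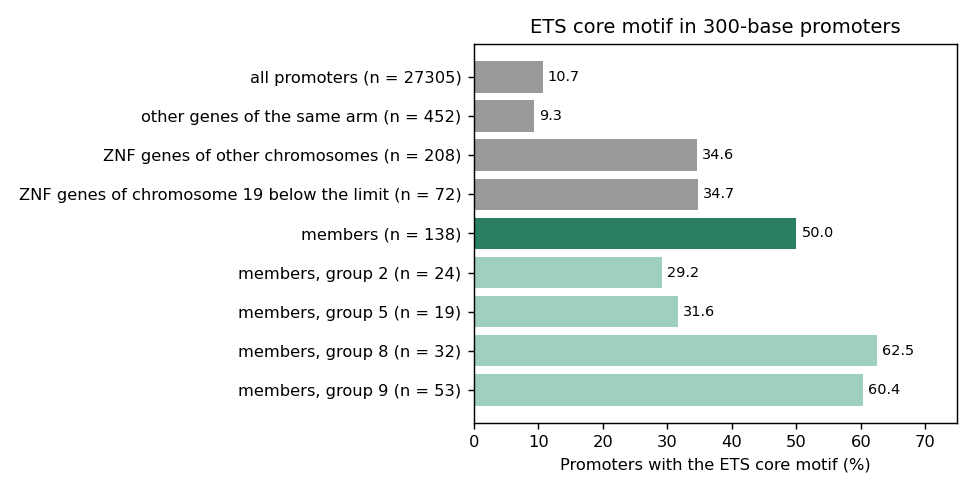
Share of 300-base RefSeq promoters (bars, in percent, with n promoters) that hold the ETS core motif on either strand, in gene sets and in members of the 4 largest position groups along the arm (2 is ZNF565 to ZNF573, 5 is ZNF575 to ZNF296, 8 is ZNF175 to ZNF331 and 9 is ZNF628 to ZNF446). The motif is in 69 of 138 members, against 10.7% of all promoters and 9.29% of other genes of the same arm, and the share is higher in groups 8 and 9 than in groups 2 and 5.

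Most members were expressed at low but measurable levels in both lines. At or above 1 FPKM were 138 members in HuES53 and 127 in HuES64, with 124 in both, where 54.2% and 53.3% of all symbols reached that level. The median member had 3.22 FPKM in HuES53 against 2.40 in HuES64. Only 12 of the 163 members reached 10 FPKM in both lines, against 6610 of all 25436 symbols. None was listed at 0 in both, where 5402 of all symbols and 198 of 799 other genes of the same arm were. Other ZNF genes were also seldom at 0 in both, with 2 of 87 on the rest of chromosome 19 and 13 of 285 on other chromosomes. The highest members were ZNF581 (63.1 FPKM in HuES53 and 94.8 in HuES64), ZNF146 (59.8 and 50.5 FPKM), ZNF787 (28.3 and 42.9 FPKM), ZNF444 (23.2 and 33.7 FPKM) and ZNF649 (29.1 and 21.9 FPKM). ZNF146 encodes a protein that consists of zinc fingers alone, ZNF444 a protein with a SCAN dimerization domain, and ZNF649 a KRAB repressor. Next came ZNF428 (12.1 and 25.1 FPKM), ZNF580 (14.2 and 20.9 FPKM) and ZNF134 (22.1 and 9.20 FPKM).

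Members below a mean of 1 FPKM numbered 22, with means from 0.0240 to 0.863 FPKM, and they were left out of the differences. Of these, 3 were listed at 0 in HuES64 and at low values in HuES53. They were ZNF835 (0.766 FPKM), ZNF534 (0.130 FPKM) and ZNF541 (0.0480 FPKM), and no fold is given for them. ZNF534 lies between ZNF528 and ZNF578. The lowest members otherwise included ZNF540 at 0.0791 and 0.0910 FPKM.

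Of 6 members with known roles, 5 were at moderate levels and ZNF534, a KRAB gene, was near 0 as given above. ZNF274, a KRAB protein that brings SETDB1 to the 3' ends of zinc finger genes, measured 9.54 FPKM in HuES53 against 10.2 in HuES64. Its difference of -0.09 changed sign with TPM scaling (0.14). ZNF331, an imprinted gene, stood at 8.33 and 7.98 FPKM, and its difference of 0.06 was -0.15 or 0.11 once a trend with GC content and transcript length was removed, depending on whether 1 transcript or the median over transcripts stood for a gene. ZNF473, which acts in the 3'-end processing of histone transcripts, stood at 2.34 and 1.84 FPKM. ZNF296, whose mouse counterpart can promote reprogramming to pluripotency, stood at 7.14 and 6.93 FPKM. ZNF350, a KRAB repressor that binds BRCA1, stood at 4.28 and 2.37 FPKM, the widest spacing of these 5.

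Differences between the lines were small for most members and leaned towards HuES53. Differences were taken on the log2(FPKM + 1) scale, HuES53 minus HuES64, for the 141 members whose mean over the lines reached 1 FPKM. Of these, 107 were higher in HuES53 (75.9%), against 52.5% of all 13790 tested genes, and 34 were higher in HuES64, against 47.5%. The median difference was 0.27 for members and 0.03 for all genes, and the middle 50% of members (their 25th to 75th percentile) lay between 0.03 and 0.57. A 2-fold difference towards HuES53 was reached by 7 members, where 2.15% of all tested genes reached it, and one towards HuES64 by 0 members, where 1.70% did. The count of 7 was 19 and 13 with pseudocounts of 0.1 and 0.5 FPKM, 17 with TPM scaling and 3 after removal of a trend in GC content and length. The share of 2.15% holds for the reported setting only. No share of all tested genes was counted for these alternatives, so their counts do not set the members apart. The other 134 members differed by less than 2-fold, and 3.86% of all tested genes were 2-fold apart in either direction. By the estimated fragment numbers, the 95% counting interval of the ratio lay above equality for 77 members, below it for 18, and across it for 46. That interval covers counting error only and rests on the assumed fragment length. The same counts were not made over all tested genes, so they do not set the members apart. TPM scaling moved the median of all genes from 0.03 to 0.25 and that of the members to 0.49, which left the members 0.23 above all genes, close to the 0.24 with deposited values.

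The 7 members at least 2-fold higher in HuES53 came from 4 separate regions of the arm. ZNF528 (chr19:52901121-52921657 in the coordinates of the deposited table) measured 5.59 FPKM in HuES53 against 0.568 in HuES64, a difference of 2.07. Its plain ratio was 9.84, with a counting interval from 6.89 to 14.1, on about 392 and 32.6 fragments. ZNF578 (chr19:52956829-53020131), the next member but 1, stood at 7.23 and 2.02 FPKM, a difference of 1.45 and a plain ratio of 3.58 (2.67 to 4.78). These neighbours thus had the largest differences of all members, while ZNF534 between them was near 0 in both lines. ZNF302 (chr19:35168567-35177302), the first member past the 35 Mb limit, stood at 10.7 and 3.90 FPKM, a difference of 1.26. Its ratio was 2.75 (2.17 to 3.47). ZNF134 (chr19:58125830-58133636) stood at 22.1 and 9.20 FPKM, a difference of 1.18. Its ratio was 2.40 (2.20 to 2.62). ZNF850 (7.86 and 3.34 FPKM), ZNF525 (11.7 and 5.23 FPKM) and ZNF667 (6.78 and 2.84 FPKM) lay just past 2-fold, with differences of 1.03, 1.03 and 1.02. Once the trend with GC content and length was removed, only ZNF528 (1.80), ZNF578 (1.37) and ZNF302 (1.25) of the 7 were still at least 2-fold different, while ZNF134 was at 0.90 and ZNF850, ZNF525 and ZNF667 were at 0.67, 0.73 and 0.73. With the median over transcripts in the same removal, ZNF134 was at 1.30 and also past 2-fold.

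ZNF829 (2.56 and 0.857 FPKM) had a difference of 0.94, under 2-fold with the pseudocount of 1 FPKM, while its plain ratio was 2.98 (2.25 to 3.95). Its locus overlaps that of ZNF345. In the other direction the largest difference was that of ZNF428, with 12.1 FPKM in HuES53 against 25.1 in HuES64 (-0.99). Its locus overlaps that of SRRM5. ZNF584 (0.724 and 1.83 FPKM, -0.72), ZNF565 (1.45 and 2.84 FPKM, -0.65), ZNF837 (1.09 and 2.19 FPKM, -0.61) and ZNF524 (2.78 and 4.76 FPKM, -0.61) followed, with ZNF787, ZNF581 and ZNF865 (3.42 and 5.50 FPKM) at -0.58, -0.58 and -0.55. The order changed with the processing: with the trend removed ZNF565 (-0.63) and ZNF584 (-0.55) lay beyond ZNF428 (-0.33), and with a pseudocount of 0.1 FPKM ZNF584 (-1.23) lay beyond ZNF428 (-1.04). ZNF565 overlaps ZNF146 only at the ends of the 2 loci (chr19:36705504-36705986), where fragments cannot be told apart by position alone. Of the 163 members, 19 overlap another row of the table.

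**Figure D2:**
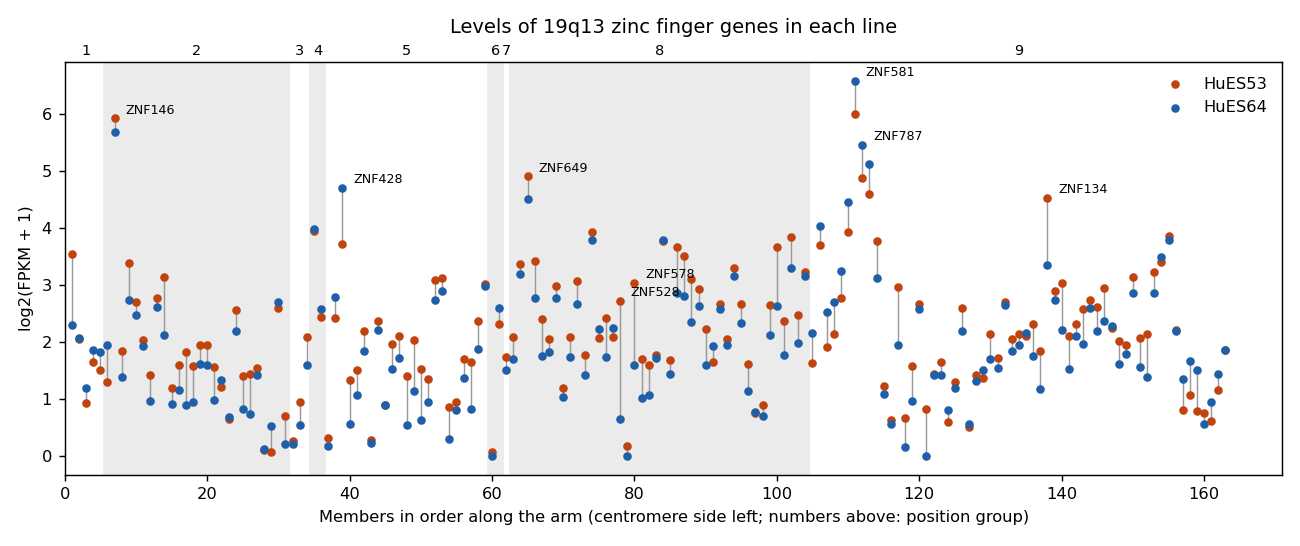
Level of each of the 163 members, as log2(FPKM + 1), in HuES53 (orange) and HuES64 (blue), in order along the arm. Each point is 1 library, grey lines join the values of a gene, and shading and numbers mark the 9 position groups. Most members lie at low levels, with ZNF581, ZNF146 and ZNF787 highest.

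Position along the arm was then compared. A gap of more than 1 Mb between neighbouring members opened a new group, which gave 9 groups, 5 of them with at least 5 tested members. Group 1 ran from ZNF302 to ZNF792 (5 members), group 2 from ZNF565 to ZNF573 (26), group 5 from ZNF575 to ZNF296 (23), group 8 from ZNF175 to ZNF331 (42) and group 9 from ZNF628 to ZNF446 (59). The small groups between them held 3 members (ZNF546 to ZNF780A), 2 (ZNF574 and ZNF526), 2 (ZNF541 and ZNF114) and 1 (ZNF473). Just outside the limit lay ZNF507, which starts 2.16 Mb below it and stood at 4.63 and 3.998 FPKM.

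Levels were highest in the groups nearest the end of the arm, though with much overlap. Median FPKM over all members of a group in HuES53 and HuES64 was 2.12 and 2.64 in group 1, 2.01 and 1.56 in group 2, 2.25 and 1.20 in group 5, 4.47 and 2.91 in group 8 and 3.40 and 2.84 in group 9. In both lines groups 8 and 9 thus had the highest medians of these 5. Across all 163 members, Spearman's rho of level with start position was 0.15, as a description across genes that share 2 libraries. Each group mixed low and high genes: group 2 ran from ZNF540 to ZNF146, and group 5 had ZNF428 as its highest member. The highest members of the small groups were ZNF780A (3.24 and 2.03 FPKM), ZNF574 (14.5 and 14.9 FPKM), ZNF114 (3.99 and 5.04 FPKM) and ZNF473.

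The difference between the lines was not the same in all groups. Higher in HuES53 were 19 of 22 tested members in group 2 (median difference 0.36), 16 of 18 in group 5 (0.40) and 35 of 39 in group 8 (0.38). In group 9 it was 34 of 52 (0.14), and in group 1 it was only 1 of 5 (-0.22), namely ZNF302. The median of group 1 was -0.06 with TPM scaling, and with groups opened by a gap of 2 Mb it joined group 2 at a median of 0.34. The remaining 4 members of group 1, which are ZNF181, ZNF599, ZNF30 and ZNF792, had differences between -0.31 and -0.02. Within group 5 the neighbours ZNF284, ZNF224 and ZNF225 stood together at 0.86, 0.89 and 0.90, and within group 8 the neighbours ZNF600, ZNF28 and ZNF468 stood at 0.81, 0.70 and 0.75. These triplets were picked after their values were seen. Across the 141 tested members the difference had no clear trend with start position (rho -0.13).

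Neighbours were then compared with each other. Among 119 pairs of adjacent tested members in the same group, 97 pairs had differences of the same sign, 81 of them higher in HuES53 and 16 in HuES64. That is 81.5% of the pairs, where 63.1% of all possible pairs of tested members had the same sign. The 2 shares are not alike in kind, since all possible pairs also cross groups, and the groups differ in their share higher in HuES53. The share among all pairs within a group was not counted, so agreement of neighbours beyond that of their group was not tested. Spearman's rho between a member's difference and that of its next neighbour was 0.39, and between their levels it was 0.30. The longest stretch of tested members on the HuES53 side ran over 16 genes from ZNF283 to ZNF296, followed by 15 from ZNF146 to ZNF585B. On the HuES64 side the longest stretch was 9 genes from ZNF628 to ZNF444 at the start of group 9 (chr19:55987699-56672262), with differences from -0.61 to -0.34. It held ZNF581, ZNF787, ZNF444 and ZNF580, which are 4 of the 8 highest members. A second such stretch, with 5 genes from ZNF497 to ZNF446, closed the arm, with differences from -0.72 to -7.91e-05. ZNF446 was in effect equal in the lines (2.65 FPKM in each), and without it the stretch would fall under the minimum of 5 genes for listing. Another such stretch, also with 5 genes, ran from ZNF181 to ZNF565 over the border of groups 1 and 2, with differences from -0.65 to -0.02. The stretches were found from the values and are a description.

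**Figure D3:**
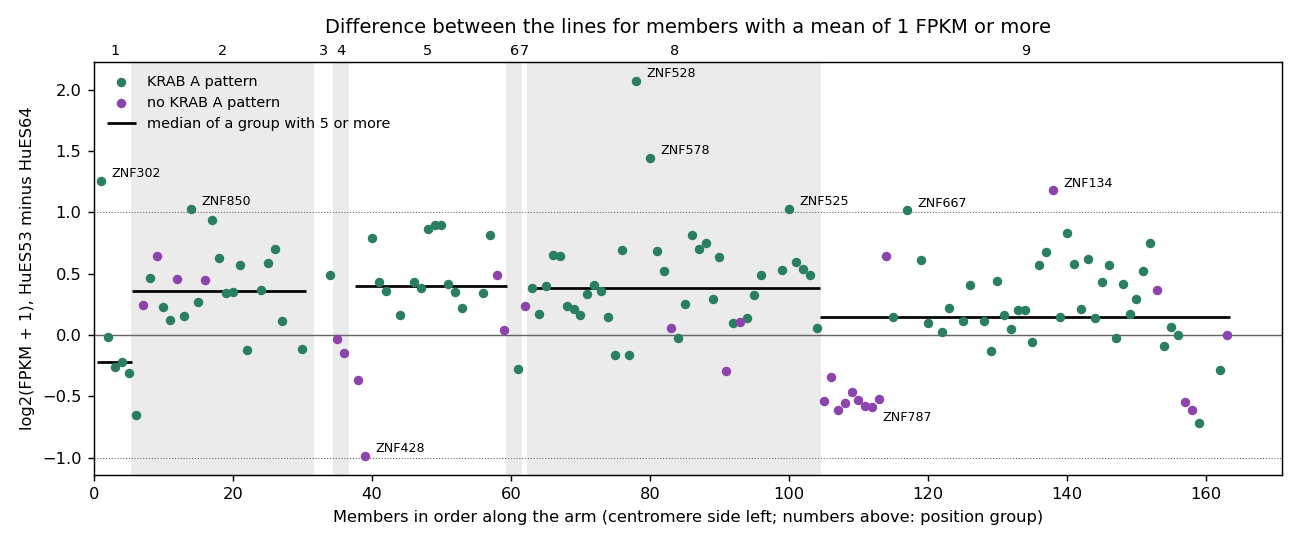
Difference between the lines, log2(FPKM + 1) in HuES53 minus HuES64, for the 141 tested members in order along the arm, coloured by whether the KRAB A pattern was found (the 4 members with no coding transcript count as without it). Black lines are medians of the groups with at least 5 tested members (-0.22, 0.36, 0.40, 0.38 and 0.14 for groups 1, 2, 5, 8 and 9) and dotted lines mark 2-fold. The 9 genes that open group 9 lie below 0 together.

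The 9 genes from ZNF628 to ZNF444 also stood apart in protein type and base composition. Reading frames of GENCODE release 29 transcripts were searched for a KRAB A box and for C2H2 fingers, by sequence pattern. The KRAB A pattern was found in 129 members, was not found in 30 other coding members, and 4 members had no coding transcript. A divergent KRAB box can escape the pattern. Members with the pattern had a median of 13 fingers and coding members without it a median of 9. None of the 9 genes from ZNF628 to ZNF444 held the pattern. Their transcripts had a GC content from 59.6% to 71.1%, where the median of all tested members was 43.2%. The other stretches on the HuES64 side did not share both features. From ZNF497 to ZNF446, 2 of 5 genes held the pattern, at a median GC content of 62.6%, and from ZNF181 to ZNF565 it was 5 of 5, at 45.2%.

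Levels and differences over the whole arm were also compared by the pattern. Tested members with the KRAB A pattern had a median level of 3.08 FPKM, averaged over the lines, and coding members without it 7.03 FPKM. With the pattern, 95 of 112 were higher in HuES53, with a median difference of 0.35. Without it, 9 of 25 were higher in HuES53, with a median of -0.34. GC content moved with this split. Of the 9 tested coding members that lacked the pattern and had a GC content under 55%, 8 were higher in HuES53 (median 0.45), whereas of the 16 that lacked it at 55% or more, 1 was (median -0.53). That 1 was ZNF296. Of the 3 tested members with the pattern at 55% or more, 1 was higher in HuES53. The 55% limit was set after the values were seen.

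A relation with GC content was also seen over the table as a whole, though not within every set of genes. Spearman's rho between difference and GC content was -0.51 over the 141 members and -0.51 over 12911 tested genes with a reference transcript. Over 367 such other genes of the same arm it was -0.11. Within groups of members it was -0.14 in group 2, -0.75 in group 5, 0.0004 in group 8 and -0.68 in group 9. Among all tested genes at 55% GC or more, 73.9% were higher in HuES64, and for the members at that GC content it was 17 of 19. Among all tested genes under 55%, 67.5% were higher in HuES53, and among members it was 105 of 122 (86.1%). With the trend of GC content and length over all genes removed, the median difference of the members was 0.12, against 0.04 for all genes, and 86 of 141 were above 0, as were 7177 of 12911 genes overall. The 9 genes from ZNF628 to ZNF444 then had a median of -0.13 in place of -0.54. By group the medians were -0.31, 0.06, 0.27, 0.13 and 0.07 in groups 1, 2, 5, 8 and 9, so that group 5 stood highest, with 16 of 18 members above 0. The rho between neighbours was then 0.23, in place of 0.39. GC content itself was alike in neighbours (rho 0.58). Beyond this removal, its part in the differences was not tested.

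**Figure D4:**
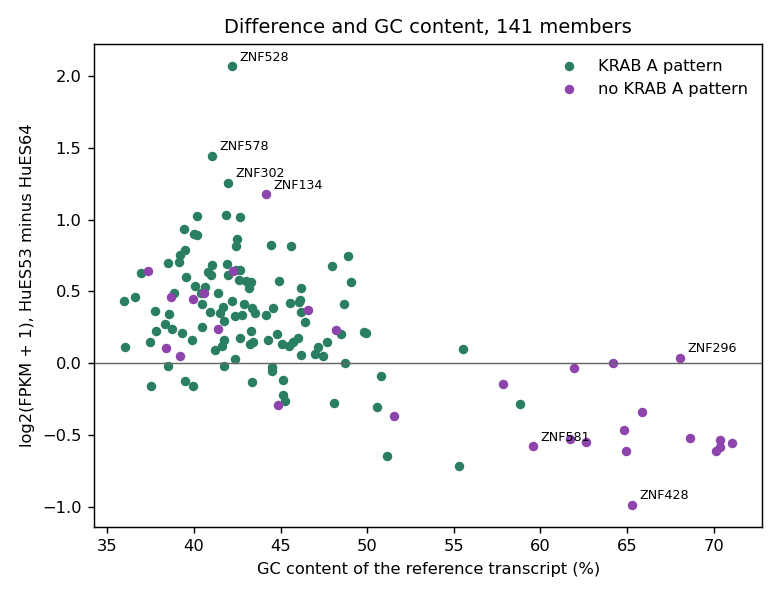
Difference between the lines against the GC content of the reference transcript for the 141 tested members, 1 point per gene, coloured by the KRAB A pattern. Points above 55% GC lie mostly below 0, while points under 55% lie mostly above it, and ZNF528, ZNF578, ZNF302 and ZNF134 stand above the rest.

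Set beside other genes, and before any trend was removed, the members had differences closer to those of zinc finger genes elsewhere than to those of other genes on their arm. ZNF genes of chromosome 19 below the 35 Mb limit had 57 of 73 tested genes higher in HuES53 (median 0.31). At least 2-fold higher in HuES53 were 11 of these 73, 4 of 227 ZNF genes of other chromosomes and 11 of 400 other genes of the arm, against 2.15% of all tested genes. ZNF genes of other chromosomes had 152 of 227 higher in HuES53 (median 0.15). Other genes of the same arm had only 108 of 400 higher in HuES53 (27.0%), with a median of -0.23 and a median GC content of 61.1%. The genes interspersed with members did not follow them in every group. The 13 tested non-members inside group 2 had a median difference of 0.19 at a median GC content of 40.6%. The 19 inside group 5 had -0.36 at 60.4%, where the members of that group had 0.40. In group 9 the 22 tested non-members had -0.04 at 63.5%, and in group 8 only 3 were tested (0.03 at 56.8%). With the trend removed, the medians were 0.12 for the members, 0.12 for the other ZNF genes of chromosome 19, 0.04 for ZNF genes of other chromosomes and 0.03 for other genes of the arm. No test of these differences was possible with 1 library per line.

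The genes that work with KRAB zinc finger proteins were well expressed in both lines. All 17 listed corepressor genes passed 1 FPKM in both, and 14 were higher in HuES53, against 52.5% of all tested genes. Of the 17, 0 were 2-fold different, where 3.86% of all tested genes were, and the median difference was 0.17. With the trend removed, 12 of the 17 were above 0 (median 0.12). The scaffold TRIM28 measured 360 FPKM in HuES53 against 388 in HuES64, and the HP1 genes CBX3 and CBX1 at 170 and 150 FPKM and at 165 and 142 FPKM. The methyltransferase SETDB1 stood at 12.7 and 14.7 FPKM. Its partner ATF7IP had the largest difference of the list, at 27.9 and 15.8 FPKM (0.78). Of 16 zinc finger genes of the arm with other names, 8 were tested, 6 of them higher in HuES53 (median 0.19), and 4 of 8 were above 0 (median 0.02) with the trend removed. The highest were ZSCAN18 (20.2 and 23.3 FPKM), ZIK1 (10.8 and 6.08 FPKM) and ZFP82 (5.69 and 4.83 FPKM). PEG3, an imprinted zinc finger gene within group 9, had 2.00 FPKM in HuES53, while HuES64 listed it at 0, just under the filter on the mean.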

How the data were processed

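RNA was sequenced from 1 library of each of HuES53 and HuES64. The authors deposited 1 table of FPKM values with 25593 rows, each with a symbol, a locus and 1 value per line. Cufflinks 2.0.2 and TopHat2 2.0.4 are listed, with no role stated, per the submitters' processing notes. For the genome build, annotation, strand setting and treatment of fragments with several matches, the sources used here give nothing. Loci count from 0 (1275 of 1312 microRNA genes then have their GENCODE length) and are given here 1-based, in the table's own build. It is not GRCh38, since 0 of 163 members overlapped their GRCh38 locus.

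The 136 rows of chromosome Y were left out and 21 repeated symbols were summed, none of them a member. Differences use a pseudocount of 1 FPKM, which understates the fold of low genes, for genes whose mean reached 1 FPKM. Depth was estimated from 19 low values in HuES53 and 11 in HuES64, of which 16 and 8 lay within 3% of whole fragments. The step came from these same values, so that nearness is no independent check. In HuES64 the estimate rests on few values, with 3 at the step itself against 8 in HuES53. This estimate replaced a first search over step sizes that favoured ever finer steps. Transcripts of GENCODE release 29 gave GC content and length for all 163 members and 93.6% of tested genes. The transcript with the longest reading frame stood for a gene, in place of a first choice, the median over transcripts, now an alternative added after seeing the data. The KRAB A pattern was loosened after a first version missed known KRAB genes. The trend was removed by subtracting medians over 20 bins of each, in 5 rounds. The difference, trend and grouping steps were run on simulated data from genes at a mean of 20 FPKM or more. Most members lie below that level. The run shows only that the code returns shifts, a trend and groups that were put in, and the other steps were not simulated. Named members are the 8 highest, the 8 largest differences each way, all at 2-fold, the highest of each group, those next to the limit and 6 with known roles. Where a gene is named beyond this rule, it was chosen after its values were seen. The members and lists were chosen with earlier results of these data known. The 55% GC limit and the stretches of 1 sign were chosen after values were seen. Alternatives covered the pseudocount, filter, scaling, gap, overlap and trend. Python 3.11.15 and pandas 2.3.3 were used.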

Additional observations from a re-analysis of the deposited data

How the results depend on the processing

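The median difference of the members stayed above 0 under every alternative run, and was 0.17 at a mean of at least 5 FPKM (35 of 47 members higher in HuES53), 0.49 with TPM scaling, and 0.12 or, by medians over transcripts (added after seeing the data), 0.16 with the GC and length trend removed. Members at least 2-fold higher in HuES53 numbered 7 as reported, 19 and 13 with pseudocounts of 0.1 and 0.5 FPKM, 4 at a mean of at least 5 FPKM, 17 with TPM scaling, and 3 or 4 with the trend removed. At least 2-fold higher in HuES64 were 2, 1 and 1 with the smaller pseudocounts and with the median of ratios. For these alternatives the share of all tested genes past the same fold was not counted, so the counts describe the members alone. Group medians with TPM scaling were -0.056, 0.59, 0.62 and 0.35 in groups 1, 2, 8 and 9, and 0.40 for the corepressor genes. With the trend removed they were -0.31 in group 1 (-0.34 by medians over transcripts), 0.058 in group 2 and 0.13 in group 8. Group 5 was at 0.037 with the filter at 5 FPKM. With a gap of 0.5 Mb, group 9 divided, and its first piece, ZNF628 to ZNF835, had a median of -0.49. With a gap of 2 Mb, groups 1 and 2 joined, and 0.34 is the median of the joined set. The differences of the group 1 members themselves did not change with the gap. At a threshold of 5 FPKM, 53 and 41 members were detected in HuES53 and HuES64. Apart from the smaller sets of genes that the stricter filter and the narrower gap leave, the cause was not tested. Among 28 named members, 2 changed sign with TPM scaling (ZNF574 and ZNF274) and 3 with the trend removed (ZNF146, ZNF574 and ZNF331, or ZNF146, ZNF574 and ZNF274 by medians over transcripts). The median of the zinc finger genes with other names was 0.02 with the trend removed. No paired analysis was possible because each line has a single library. Members near 1 FPKM rest on few fragments, as few as 28.7 in HuES53 and 20.7 in HuES64 by the depth estimate, so their differences are the least precise.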
